A study of Mus musculus with 2 samples.

Results

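Cells that sense interferon switch on a large group of genes through the transcription factor ISGF3, which includes Stat2 and Irf9 and binds a promoter element named ISRE, or through a further promoter element named GAS. The products of these interferon-stimulated genes act against viruses at every step, from blocking entry and degrading RNA to tagging proteins with the ubiquitin-like protein Isg15, and some of them are the sensors of foreign RNA and DNA themselves. Macrophages keep many of these genes at a low basal level even without infection. Here 54 such genes were followed in the RAW264.7 macrophage line of the mouse, whose cells can become osteoclasts, after transfection with *Flcn* siRNA or with scramble siRNA. The list was written by gene symbol with earlier results of the same arrays known, so every value given for it is a description. Of the 54 genes 50 had at least 1 probe set that names no other gene, among 18193 genes named in this way. *Oas1g*, *Isg15*, *Ifi205* and *Ifi44* had none in the annotation used and are not analysed here.

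The groups compared were RAW264.7 cells given *Flcn* siRNA and RAW264.7 cells given scramble siRNA, both carried in medium with 10% FCS and both harvested 48 hours after the medium had been renewed, itself 24 hours after transfection. The sample labels name no RANKL. A single Affymetrix Mouse 430 2.0 array and a single siRNA sequence stand for each condition, so there is no replicate error and no test, the number of arrays limits the precision, and an effect of the siRNA sequence, of the culture or of the knockdown cannot be told apart. Values are linear signals in array units. Each gene is given by its brightest probe set, signals under the array median (13.6 with *Flcn* siRNA and 12.8 with scramble siRNA) were raised to it for the ratio, and a gene passed the signal filter where its geometric mean over both arrays reached 13.2. A gene is called lower or higher at 1.5-fold or more, which is 0.58 on the log2 scale.

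*Flcn* itself read 206 with *Flcn* siRNA against 241 with scramble siRNA at its brightest probe set, and 145 against 209 at the other above the filter, so neither was called lower. *Gpnmb*, whose mRNA is a known readout of *Flcn* loss, had 2500 with *Flcn* siRNA against 294 with scramble siRNA. Macrophage markers such as *Csf1r* and *Lyz2* were bright on both arrays, and none of 10 markers above the filter was called. None of the T cell or B cell markers on the array passed the filter, and of 6 fibroblast markers only *Col1a2* did. Their summed signals with *Flcn* siRNA against scramble siRNA were 17.6 against 26.7 for 5 T cell markers, 22.0 against 28.5 for 4 B cell markers and 34.5 against 47.8 for the fibroblast markers. Of 5 osteoclast markers above the filter 2 were higher with *Flcn* siRNA (all genes, 5.84%). They were the protease gene *Ctsk* (58.4 against 17.2) and the proton pump subunit gene *Atp6v0d2* (119 against 43.0). The part of this in the values below was not tested.

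Among the interferon-stimulated genes, 44 of 50 passed the signal filter, and 22 of these were lower with *Flcn* siRNA while 1, *Ifit2*, was higher. Beside these 22 of 44 genes, 5.54% of all 10285 genes above the filter were lower and 5.84% were higher. The median log2 ratio of the 44 genes was -0.60, with quartiles of -0.91 and -0.24, beside 0.013 for all genes. A log2 ratio below 0 was found for 37 of the 44 genes (84.1%) and for 48.1% of all genes above the filter. At 2-fold or more 10 were lower and 0 were higher, and in all genes 1.1% were lower and 0.846% were higher by as much. The genes with intermediate signals held most of the calls. Between a geometric mean signal of 50 and 200, 14 of 22 of them were lower (all genes, 5.24%), and at 200 or above 6 of 15 were lower (all genes, 3.64%). Under 50 there were 2 lower and 1 higher of 7 (all genes, 9.94% lower and 14.6% higher). After division of each array by its median, the median was -0.68 for the 44 genes and -0.075 for all genes. The higher genes then made up 34.1% of all called genes in place of 51.3%, and 23 of the 44 genes were lower and 1 was higher. Of all genes 7.85% were lower and 4.05% were higher at this scaling.

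**Figure D1:**
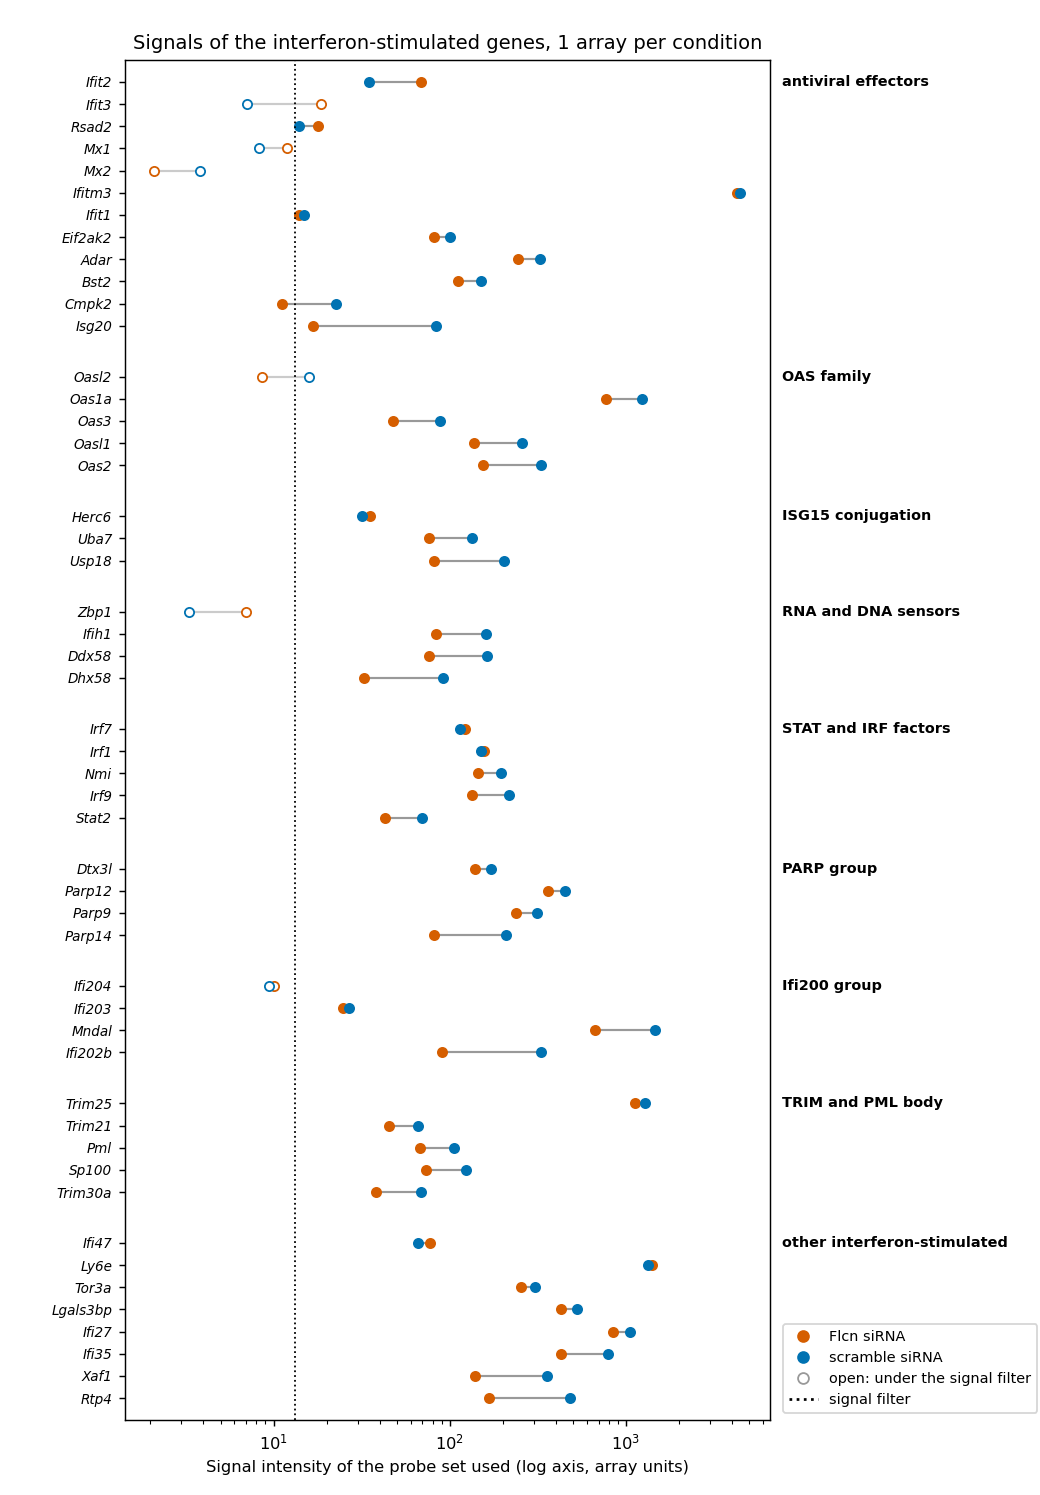
Signal of the probe set used for each of the 50 genes (log axis, array units), grouped by role, with *Flcn* siRNA in orange, scramble siRNA in blue and 1 array per condition. Open circles are the 6 genes under the signal filter (dotted line, 13.2), and most orange points lie left of their blue partners. On the other side are *Ifit2*, *Ifit3*, *Rsad2*, *Mx1*, *Herc6*, *Zbp1*, *Irf1*, *Irf7*, *Ifi204*, *Ifi47* and *Ly6e*.

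**Figure D2:**
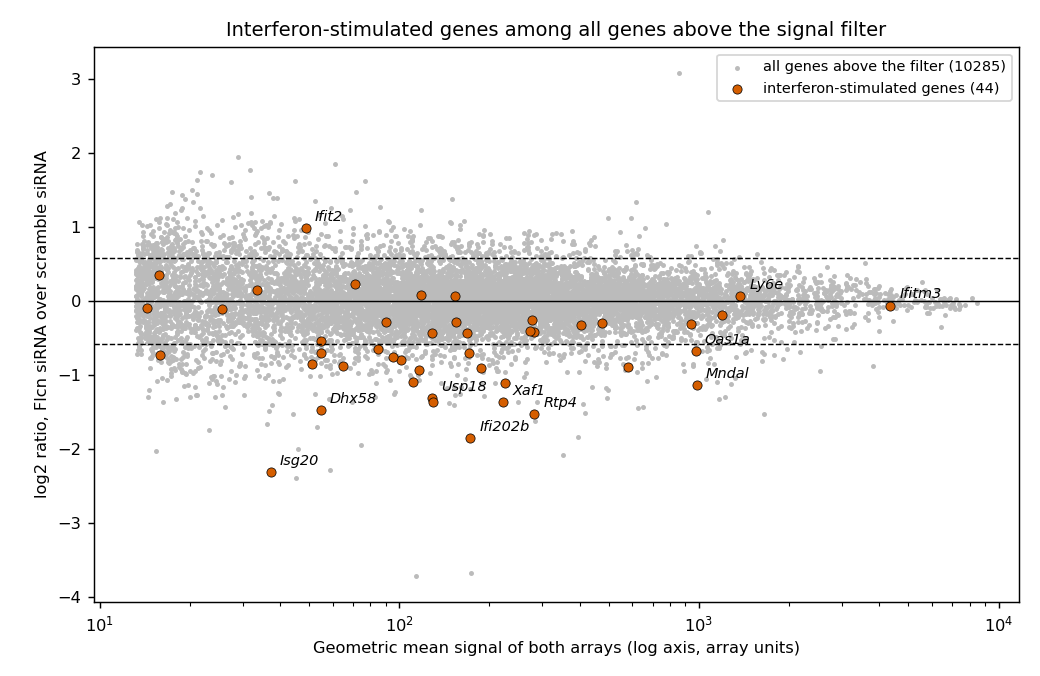
Log2 ratio (*Flcn* siRNA over scramble) against the geometric mean signal (log axis) of 10285 genes above the filter in grey, with the 44 interferon-stimulated genes in orange and dashed lines at 1.5-fold. The orange points lie mostly below 0 at signals from about 50 upward.

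Promoters were searched for the elements that this pathway uses, since many of these genes were lower together. In RefSeq windows of GRCm38.p6 that span 250 bases before and 50 bases after each annotated start, the ISRE core, GAAA followed by any 2 bases and GAAA again, was looked for on both strands, with overlapping matches each counted. It was present for 18 of 41 interferon-stimulated genes in the table (43.9%) and for 3.99% of 27025 genes. The GAS letters TTCNNNGAA, which read the same on both strands, were present for 10 of these 41 genes (24.4%) and for 9.55% of all genes. The core was as frequent in the genes that were lower, 7 of 17, as in those that passed the filter without a call, also 7 of 17. A match is a description of letters and was not tested as a binding site. Of 13 genes with a core wholly upstream of a start, 9 passed the signal filter. Their stretches are shown 5′ to 3′ on the strand of the gene, with every core in capitals (written TTTC first where it lies on the other strand), first for the 5 genes that were lower and then for the 4 that were not called.
*Oas1a*, chr5:120907510-120907565, minus strand: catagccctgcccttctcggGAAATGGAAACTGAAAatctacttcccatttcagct
*Oas3*, chr5:120777705-120777754, minus strand: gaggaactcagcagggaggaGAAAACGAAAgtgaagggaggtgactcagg
*Stat2*, chr10:128270256-128270305, plus strand: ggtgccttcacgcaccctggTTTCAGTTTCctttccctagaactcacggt
*Mndal*, chr1:173880194-173880243, minus strand: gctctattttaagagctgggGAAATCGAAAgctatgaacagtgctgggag
*Trim30a*, chr7:104465200-104465249, minus strand: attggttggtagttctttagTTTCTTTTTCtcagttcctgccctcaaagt
*Ifi203*, chr1:173942498-173942547, minus strand: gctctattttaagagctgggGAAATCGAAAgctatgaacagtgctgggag
*Ifit1*, chr19:34640784-34640833, plus strand: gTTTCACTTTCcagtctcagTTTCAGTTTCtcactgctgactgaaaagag
*Rsad2*, chr12:26456543-26456592, minus strand: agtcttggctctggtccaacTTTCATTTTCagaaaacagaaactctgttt
*Bst2*, chr8:71537567-71537622, minus strand: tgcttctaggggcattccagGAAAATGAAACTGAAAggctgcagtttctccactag
*Oas1a* and *Bst2* carry 2 overlapping cores each, 20 and 130 bases upstream of the start, and *Ifit1* carries 2 that do not overlap. The stretches of the neighbours *Mndal* and *Ifi203* are the same in 50 of 50 bases. Their ratios, given below, differed, but that of *Ifi203* rests on 1 dim probe set, so the 2 genes cannot be compared closely.

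The OAS family makes short 2′-5′-linked oligoadenylates on double-stranded RNA, which activate the ribonuclease RNase L. Its 4 genes above the filter were all lower with *Flcn* siRNA, with a median log2 ratio of -0.89. *Oas1a*, the brightest of them, had a signal of 772.5 with *Flcn* siRNA against 1233 with scramble siRNA (log2 ratio -0.67). *Oas2* had 154 against 331, the lowest ratio of the 4 genes, at a log2 ratio of -1.10. *Oasl1*, a member without synthetase activity that dampens *Irf7* translation in mice, had 137 against 256, and *Oas3* had 47.8 against 87.6. The 4 values thus lay between 46.6% and 62.7% of the scramble siRNA signal. *Oasl2* was dim on both arrays, at 8.6 and 15.8, and did not pass the filter. The *Oas1a* stretch printed above differs from that of its tandem copy *Oas1g* at 1 of 56 bases, and each of the *Oas* genes was read by 1 probe set.

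The 3 sensors of viral RNA in this list that passed the filter were lower as well (all genes, 5.54%). *Ddx58*, which encodes RIG-I and detects RNA with a 5′-triphosphate end, had a signal of 76.2 with *Flcn* siRNA and 163 with scramble siRNA. Its log2 ratio was -1.09, and its other probe set above the filter gave -1.03. A further *Ddx58* probe set, under the filter, read 12.5 against 11.1, and the mean of all its probe sets was -0.68. *Ifih1*, which encodes MDA5 and detects long double-stranded RNA, had 84.0 and 160 (-0.93). *Dhx58*, which encodes LGP2, a regulator of both, had 32.8 and 91.1 (-1.47). The other *Dhx58* probe set above the filter gave only -0.46, one more, under the filter, read 13.7 against 7.7, and the mean of all its probe sets was -0.61, so the size of its difference depends on the probe set. *Zbp1*, a sensor of nucleic acids in the Z form, had signals of 7.0 and 3.3, under the filter. Other sensors are counted with the induction pathway below, and those above the filter were not called. The RNA sensor *Tlr7* had 453 with *Flcn* siRNA against 433 with scramble siRNA, and *Tlr3* had 16.3 against 23.2. The DNA sensor *Cgas* had 290.5 against 216.

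The genes of Isg15 conjugation split. *Usp18*, which removes Isg15 from proteins and also restrains signalling at the interferon receptor, had 81.8 with *Flcn* siRNA against 203 with scramble siRNA, which is 2.48-fold lower. *Uba7*, the enzyme that activates Isg15 for transfer, had 76.6 against 134 and all of its 3 probe sets were lower, from -0.99 to -0.80 on the log2 scale. *Herc6*, the Isg15 ligase of the mouse, had 35.3 against 31.8, and its 4 probe sets lay on both sides of 0, from -0.26 to 0.15.

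Of the transcription factors, the ISGF3 parts *Stat2* and *Irf9* were lower and *Irf1* and *Irf7* were not. *Stat2* had 42.9 with *Flcn* siRNA and 69.9 with scramble siRNA (log2 ratio -0.70, and -0.65 for the other probe set). *Irf9*, the DNA-binding part of ISGF3, had 134 and 218 (log2 ratio -0.70). *Irf7*, the factor that amplifies interferon alpha transcription, had 121 and 114.5, and *Irf1* had 157 and 150, so that both differed by less than the usual spread between probe sets of a gene, whose SD has a median of 0.19 over 5034 genes. Both lay just below 0 after division of each array by its median, at -0.0050 for *Irf7* and -0.024 for *Irf1*. *Nmi*, which binds STAT proteins and *Ifi35*, had 144.5 and 196 and a log2 ratio of -0.44, which is not a call.

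Antiviral effectors showed the widest range of all groups, from a log2 ratio of -2.32 to 0.98, with a median of -0.29 over 9 genes. *Isg20*, an exonuclease that degrades single-stranded RNA, had a signal of 16.7 with *Flcn* siRNA against 83.2 with scramble siRNA, which is 4.98-fold lower and the lowest ratio of the 44 genes. The first of these signals lies close to the array median, so the ratio rests on a weak signal. *Cmpk2*, a mitochondrial nucleotide kinase, had 11.2 against 22.5 and was at least 1.65-fold lower, and it passed the filter only through its scramble siRNA signal.

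Of the RNA-binding IFIT proteins, *Ifit2* had 68.6 with *Flcn* siRNA against 34.7 with scramble siRNA, which is 1.98-fold higher. *Ifit3*, its neighbour on chromosome 19, had 18.5 against 7.1 but did not pass the filter, and *Ifit1* had 13.9 against 14.8, near the median on both arrays. *Rsad2*, which encodes viperin, an enzyme that makes a chain-terminating nucleotide, had 17.8 against 14.0, a difference of 0.35 on the log2 scale and no call. The dynamin-like GTPases *Mx1* (11.9 against 8.3) and *Mx2* (2.1 against 3.8) were under the filter. Apart from *Ifit2*, each of these genes had a scramble siRNA signal of 14.8 or less.

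The brightest effector, *Ifitm3*, which blocks the fusion of virus with endosomes, had nearly equal signals of 4256 with *Flcn* siRNA and 4450 with scramble siRNA. *Bst2*, the tetherin that holds budding virus at the cell surface, had 111 and 150 (log2 ratio -0.44). *Adar*, which edits adenosine to inosine in double-stranded RNA, had 244 and 326, with log2 ratios of -0.61 to -0.41 at its 3 probe sets. *Eif2ak2*, which encodes the RNA-activated kinase PKR, had 81.8 and 99.8, with -0.50 to -0.29 at 3 probe sets. None of these 4 genes was called at the probe set used, but for *Adar* and *Eif2ak2* every probe set lay below 0.

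**Figure D3:**
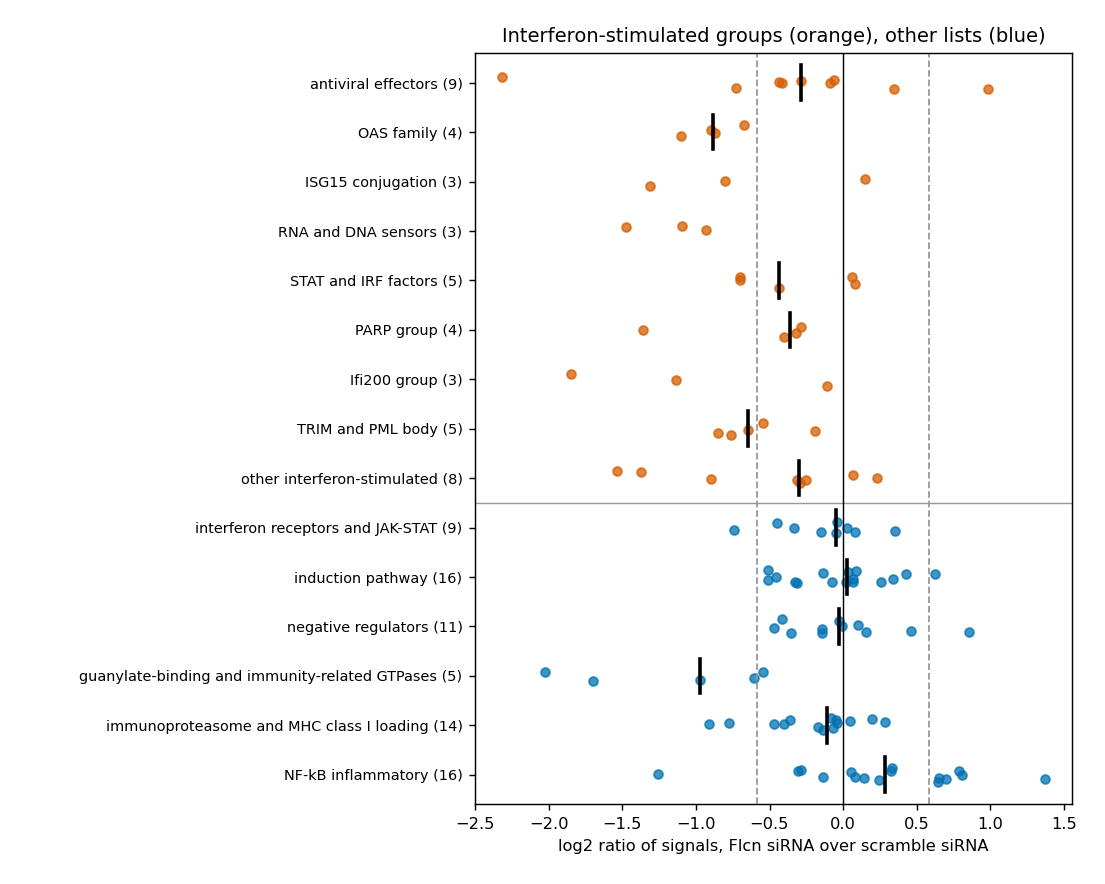
Log2 ratio (*Flcn* siRNA over scramble) for each gene above the signal filter, with the number of genes in parentheses, bars at the median of lists with at least 4 genes and dashed lines at 1.5-fold. The OAS genes and the 3 genes of the RNA and DNA sensor group all lie left of the lower dashed line. Receptors and the induction pathway, which also holds sensors, are spread around 0.

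The PARP group holds ADP-ribosyltransferases of the antiviral response and the ubiquitin ligase *Dtx3l*, the partner of *Parp9*. *Parp14* had a signal of 81.0 with *Flcn* siRNA and 208 with scramble siRNA, which is 2.57-fold lower, with -1.36 and -0.90 on the log2 scale at its probe sets. The other 3 genes were below 0 without a call. *Parp9* had 236 and 313, *Parp12* had 362 and 452.5, and *Dtx3l* had 140 and 171. The median of the 4 genes was -0.36. For *Dtx3l* the second probe set gave -0.84, past 1.5-fold, so its call depends on the probe set. *Parp9*, *Parp14* and *Dtx3l* all lie on chromosome 16.

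Genes of the Ifi200 group encode proteins with a domain that binds DNA and lie in a cluster on chromosome 1 with much sequence in common. *Ifi202b*, an inhibitor of the DNA sensor Aim2, had 90.9 with *Flcn* siRNA against 328 with scramble siRNA, which is 3.61-fold lower and second to *Isg20*. *Mndal*, a nuclear member of the family, had 663 against 1458 (log2 ratio -1.14, and -1.28 for the other probe set). *Ifi203* had 24.7 against 26.7 at its only probe set that names no other gene, and *Ifi204* had 10.1 against 9.4, under the filter. The values are uncertain between paralogs, since 1 further probe set for *Ifi202b*, 1 for *Mndal*, 1 for *Ifi204* and 3 for *Ifi203* name several genes and were left out. The probe sets used for *Ifi202b* and *Mndal* are also of the kind that can match more than 1 transcript. The other *Mndal* probe set, at -1.28, is not of that kind.

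Ubiquitin ligases of the TRIM family and parts of the PML nuclear body all lay below 0, with a median log2 ratio of -0.65 over 5 genes. *Sp100* had 73.2 with *Flcn* siRNA and 124 with scramble siRNA (-0.76, and -0.78 for the other probe set). *Pml*, the scaffold of the body, had 68.0 and 106 (-0.65), with -0.48 at the other probe set above the filter and -0.55 for the mean of all, so its call depends on the probe set. *Trim30a*, which restrains NF-kB signalling, had 38.2 and 68.7 (-0.85), with -0.36 at the other probe set. *Trim21*, a cytosolic receptor of antibodies, had 45.4 and 66.3 (-0.55), just short of a call. Its other probe set gave only -0.13, and the mean of both was -0.34. *Trim25*, which ubiquitinates RIG-I, had 1118 and 1275 (-0.19), while a dimmer probe set gave -0.64.

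Of the remaining genes 3 were lower. *Rtp4*, a chaperone of G protein-coupled receptors, had 166 with *Flcn* siRNA against 481 with scramble siRNA, which is 2.90-fold lower. *Xaf1*, which binds the apoptosis inhibitor Xiap, had 138 against 358, 2.59-fold lower. Each also has a probe set under the filter, and with all probe sets averaged the log2 ratio was -0.72 in place of -1.54 for *Rtp4* and -0.64 in place of -1.37 for *Xaf1*. *Ifi35*, the partner of *Nmi*, had 426 against 794 (-0.90), but its other probe sets gave -0.34 and -0.29, so it is a call at 1 probe set only. *Ifi27* had 846 against 1049, the secreted glycoprotein *Lgals3bp* had 430 against 527, and the torsin *Tor3a* had 254 against 303, with log2 ratios from -0.31 to -0.26 and no call. *Ly6e*, a cell surface protein with a lipid anchor, had 1404 against 1341, and the GTPase *Ifi47* had 77.2 against 65.8. After division of each array by its median *Ly6e* lay just below 0, at -0.021.

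Probe sets of a gene read the same RNA and are no replicates, but they show how far a ratio depends on the part of the transcript. Of 71 probe sets above the filter for the 44 genes, 61 lay below 0 and 10 above, with 32 lower and 1 higher by 1.5-fold or more. The same counts over all probe sets of the array were not computed, so these describe the 44 genes only. The filter was passed by at least 2 probe sets for 19 genes. At the scaling used, in 16 of these all lay below 0, in 3 (*Herc6*, *Ly6e* and *Tor3a*) they lay on both sides, and in none did all lie above. The SD between probe sets had a median of 0.19 in these 19 genes. Of the 22 genes that were lower, 10 had several probe sets above the filter, and in 6 of them (*Parp14*, *Mndal*, *Ddx58*, *Uba7*, *Sp100* and *Stat2*) each was past 1.5-fold. The other 12 rest on 1 probe set, among them *Isg20*, *Ifi202b*, *Rtp4* and *Usp18*.

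**Figure D4:**
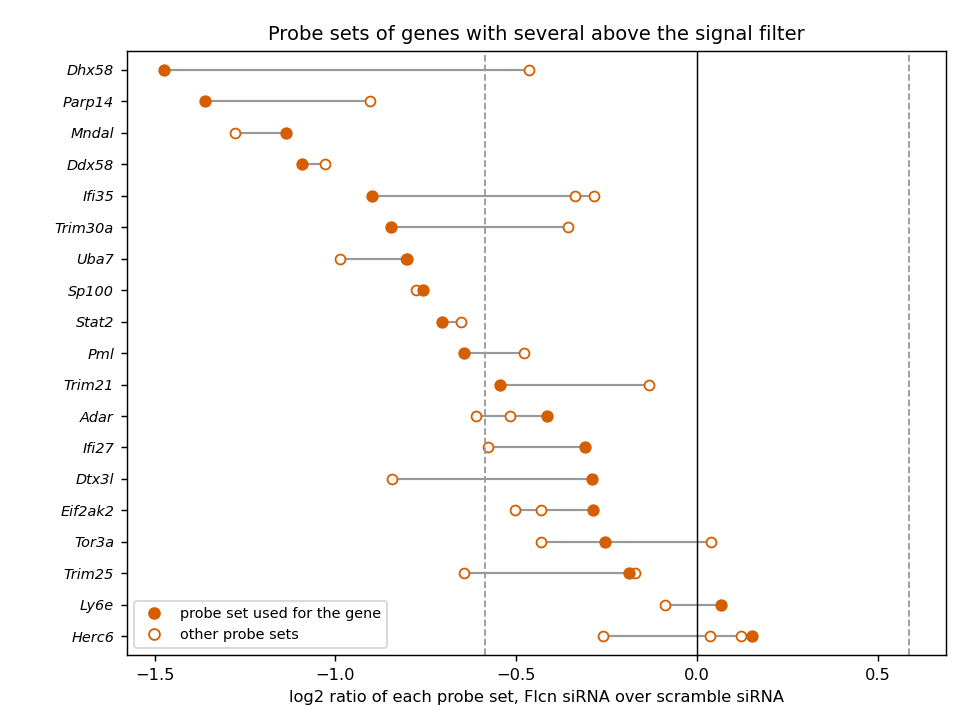
Log2 ratio of every probe set above the signal filter for the 19 interferon-stimulated genes with several, *Flcn* siRNA over scramble siRNA, with the probe set used filled, the others open and dashed lines at 1.5-fold. Only *Herc6*, *Ly6e* and *Tor3a* have points on both sides of 0, and *Dhx58* has the widest range.

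The other genes of the pathway were taken in their order from ligand to regulator. Among interferon ligands 0 of 9 on the array passed the filter, and *Ifnb1*, the early interferon of macrophages, had signals of 10.8 with *Flcn* siRNA and 7.6 with scramble siRNA, both under the array median. Of 9 receptor and JAK-STAT genes 1 was lower, *Jak2*, a kinase of the interferon gamma receptor, with 92.5 against 154.5, and the median was -0.049 (-0.24 with all probe sets of a gene averaged). The type I receptor chains *Ifnar1* (234 against 242) and *Ifnar2* (788 against 991) were not called. In the induction pathway, which leads from sensors to interferon genes, 0 of 16 were lower and 1 was higher, *Tank*, a scaffold of the kinase Tbk1 (653 against 423), with a median of 0.025. Among negative regulators 0 of 11 were lower and 1 was higher, *Cish*, with 23.2 against 11.0 (at least 1.81-fold), and the median was -0.029. *Cish* passed the filter only through its *Flcn* siRNA signal. Of all genes above the filter 5.54% were lower and 5.84% were higher. A single call in a list of this size is thus no result about the list. After division of each array by its median, the induction pathway had a median of -0.063.

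The nearest gene groups were set beside the members. Guanylate-binding and immunity-related GTPases, which interferon gamma in particular induces, were also lower, in 4 of 5 genes above the filter with a median of -0.97. They were *Gbp8* (4.3 with *Flcn* siRNA against 55.5 with scramble siRNA, at least 4.08-fold), *Irgm2* (29.4 against 95.4), *Igtp* (57.8 against 113) and *Gbp7* (at least 1.52-fold). *Gbp8* and *Gbp7* passed the filter only through their scramble siRNA signals, and with no filter the median over 10 genes was -0.23. Among those under the filter *Iigp1* had 15.3 against 7.1, *Gbp3* had 9.8 against 2.7 and *Gbp2b* had 8.2 against 1.5. In immunoproteasome and MHC class I loading 2 of 14 were lower, *Tapbpl* (log2 ratio -0.91) and *Tap1* (-0.78), and the median was -0.11. Of the NF-kB inflammatory genes 6 of 16 were higher and 1 was lower, with a median of 0.29 (0.18 with all probe sets averaged and 0.12 with no filter). The highest were *Il1rn*, the interleukin 1 receptor antagonist (241 against 93.1), *Cxcl1* (at least 1.75-fold) and the chemokine *Ccl4* (362 against 209). *Cxcl1* had 22.4 against 8.8 and passed the filter only through its *Flcn* siRNA signal. The lower gene was the prostaglandin synthase *Ptgs2* (33.7 against 80.7). Over all genes above the filter the shares were 5.54% lower and 5.84% higher. With 1 array per condition the differences between these groups were not tested.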

How the data were processed

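Total RNA of RAW264.7 cells was hybridised by the authors to Affymetrix Mouse Genome 430 2.0 arrays, 1 per siRNA, and processed with GCOS. The deposited values are linear signal intensities, 1 per probe set, without detection calls, with a trimmed mean (2% of values dropped from either tail) of 100.0 for each array. How GCOS was set is not given in the sources used here. Of 45101 probe sets, 64 are controls. The members and lists were chosen with earlier results of these data known. Genes were named through a platform annotation and RefSeq (GRCm38.p6), using the 34945 probe sets with 1 gene (34741 matched by Entrez number), while 932 name several genes and 9160 are unnamed here. As a sign of RNA quality, actin 3′ over 5′ probe signal came to 1.34 with *Flcn* siRNA and 1.44 with scramble siRNA. No p-value was computed. Every member is accounted for, and from other lists genes past 1.5-fold are named, at most the 3 highest and 3 lowest. *Ifnb1*, *Ifnar1*, *Ifnar2*, *Tlr3*, *Tlr7*, *Cgas*, *Csf1r*, *Lyz2*, *Col1a2*, *Iigp1*, *Gbp2b*, *Gbp3* and *Gbp7* were added after their values were seen. The functions were tested on simulated data. Python 3.11.15, numpy 2.4.6, pandas 2.3.3 and matplotlib 3.10.9 were used. A planned comparison of protein sequences within families was not run.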

Additional observations from a re-analysis of the deposited data

How the results depend on the processing

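The alternatives were 2 other scalings, 3 other choices of probe set, 2 other floors, 2 other filters and a 2-fold call. Across all of them the median of the interferon-stimulated genes stayed below 0, between -0.68 and -0.41, and no gene called lower changed sign. Of the 22 genes that were lower, 19 stayed so under every alternative that kept them, the 2-fold call aside. *Cmpk2* (-0.52), *Pml* (-0.55) and *Ifi35* (-0.51) missed 1.5-fold when all probe sets of a gene were averaged, and *Ifi35* also with probe sets unique to 1 transcript (-0.34). With unique probe sets the median was -0.44, and with no filter it was -0.43, where the median of the antiviral effectors was -0.077. Unique probe sets left 43 of the interferon-stimulated genes, of which 20 were lower (all genes, 5.55%). With all probe sets averaged the effectors had a median of -0.42 and the PARP group -0.49. Of 43 interferon-stimulated genes 19 were then lower, and of all 9437 genes 364 were lower in place of 570 of 10285. A filter at the 75th percentile left 15 genes, of which 6 were lower, 0 were higher and 93.3% lay below 0, with a median of -0.41. Of all 4549 genes it left, 165 were lower and 105 higher, in place of 570 and 601 of 10285. Counted at 2-fold, 10 were lower and 0 were higher. Fewer genes tested, or a stricter fold, is part of how the last 2 settings are built, and the cause of the other changes was not tested. The settings for the other lists were added after seeing the data, and there averaging all probe sets gave -0.24 for receptors and JAK-STAT genes, and 0.18 for the NF-kB genes, and no filter gave -0.23 for the GTPases and 0.12 for the NF-kB genes. Single genes moved with averaging too, among them *Ddx58* (-0.68), *Dhx58* (-0.61), *Rtp4* (-0.72) and *Xaf1* (-0.64). No paired analysis was possible because each condition has 1 array, and for the same reason no replicate could be left out. Signals near the array median, as for *Isg20*, *Cmpk2* and *Rsad2*, limit what their ratios can show.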
